A study of Mus musculus with 20 samples.

Results

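Cultures of primary mouse renal tubular epithelial cells were compared in 2 states, rich or poor in proximal tubule transcripts. The libraries were chosen by the level of Amn, which encodes amnionless, the partner of the endocytic receptor cubilin. A library was called Amn-high from 4 CPM upward (the count scaled to the library's column total) and Amn-low below 2 CPM. Of the 20 libraries, 4 were Amn-high and 16 were Amn-low. The 4 Amn-high libraries were the control and stimulated libraries of 2 of the 10 animals, animals 1 and 9, and all 4 carried the het label. Just inside the threshold, the lowest Amn-high library held 8.78 CPM of Amn. Just outside it, the highest Amn-low library held 0.894 CPM, so no library lay between the limits.

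RNA was sequenced from renal tubular epithelial cells grown from kidneys of the strain B6.129-Ptprz1tm1Nmo, which all 20 libraries share. The genotype was labelled PTPRZ_het or PTPRZ_KO for the receptor tyrosine phosphatase gene Ptprz1, and no sex or age is stated. Each genotype had 5 untreated control libraries and 5 libraries treated with LPS at 100 ng/mL and interferon-gamma at 10 ng/mL for 24 h (LPS+IFNγ). Totals ran from 12899528 to 20411411 counts per library, with a median of 17431039. The Amn-low class held 6 het and 10 KO libraries, so class, genotype and animal cannot be told apart fully, and no KO culture shows the Amn-high state. Ptprz1 was at 0 to 0.257 CPM in the het and 0 to 0.452 CPM in the KO libraries, a level too low to check the genotype labels.

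Stimulation was read from Nos2, the inducible nitric oxide synthase, as above or below 50 CPM. Unstimulated libraries held at most 0.233 CPM of Nos2 and stimulated libraries 85.3 to 3400.1 CPM. In 4 Amn-low libraries, the pairs of animals 4 and 8, this reading went against the treatment label, while in all 4 Amn-high libraries both gave the same state. By Nos2 each class was evenly split, with 2 unstimulated and 2 stimulated Amn-high libraries against 8 and 8 Amn-low ones. Animals 5 and 7 are listed under both genotypes. The labels do not say whether an animal's libraries came from separate cultures, so p-values measure only the spread between these libraries, which may be technical.

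The proximal tubule is the nephron segment that takes back most of the filtered glucose, amino acids, phosphate and protein. Its cells carry an apical brush border of microvilli rich in peptidases, an endocytic apparatus built on megalin, cubilin and amnionless, and a programme of transporters and metabolic enzymes that depends on the transcription factor HNF4A among others. In culture these cells are known to lose that programme with time and to take up injury-associated, contractile and matrix genes. In a bulk library, fewer cells of a type and less RNA per cell cannot be told apart.

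No difference in depth between the classes passed the test. Averaged per animal, the total was 17597259 ± 1908324 counts (SD, n = 2) in the Amn-high animals and 17167988 ± 1078329 (SD, n = 8) in the others (exact two-sided permutation test over 45 arrangements, p = 0.711, adjusted over the 2 measures 0.711). Genes detected numbered 19075 ± 525 (SD, n = 2) against 18769.9 ± 261 (SD, n = 8), with p = 0.222 (exact permutation test, adjusted 0.444) and 0.0222 the smallest p this design allows.

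Because the libraries were selected on a proximal tubule gene, the differences between the classes are given as a description, with no test. All CPM values from here on are scaled by TMM library factors. Fold changes are log2 differences, Amn-high minus Amn-low, adjusted for stimulation state, with their standard error. A gene was called higher or lower when the classes did not overlap within either stimulation state and differed at least 2-fold. Of 15618 genes tested, 736 were called higher (4.71%) and 656 lower (4.2%) in the Amn-high libraries. Without the fold limit the classes did not overlap for 1247 higher genes (7.98%) and 1119 lower genes (7.16%). The rule itself fixed that such genes exist, so nothing is read from these shares. Restricted to het libraries, 1166 genes were called higher and 970 lower. With 1 Amn-high animal left out, the counts were 1226 and 898 (without animal 1) or 1176 and 1162 (without animal 9). Without animals 4 and 8, whose labels and Nos2 differ, they were 854 and 736. Each of these settings uses fewer libraries, which makes non-overlap easier to reach. The median log2 fold change over all tested genes was 0.01.

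The endocytic apparatus was higher in part. Amn stood at 46.9 and 19.7 CPM unstimulated and 15.1 and 8.43 CPM stimulated, against 0 to 0.916 CPM (median 0.388) in the Amn-low libraries, a log2 difference of 5.84 ± 0.49. These values chose the libraries. Cubn, the receptor cubilin, was at 32.2 and 17.3 CPM unstimulated and 14.6 and 10.1 CPM stimulated against 2.42 to 7.51 CPM (median 5.51), so the lowest Amn-high library still exceeded the highest Amn-low one. Lrp2, the megalin gene, stood at 203 and 233 CPM unstimulated and 114 and 113 CPM stimulated against 17.9 to 116 CPM (median 44.6). Its stimulated Amn-high values lay near the Amn-low maximum, which was set by an unstimulated library. Of 9 listed endocytosis genes, all of which passed the count filter, 3 were called higher and 0 lower. The adaptor Dab2 and the endosomal chloride exchanger Clcn5 had positive log2 differences of 1.58 ± 0.26 and 0.92 ± 0.26 with overlapping classes, and the receptor chaperone Lrpap1 differed by −0.17 ± 0.16.

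Brush border genes were higher in the Amn-high libraries. Of 20 listed peptidases and microvillar scaffold genes, 17 passed the filter and 13 were called higher, with a median log2 difference of 3.63 over those 17. Of the 17, 8 reached the filter's 0.574 CPM in at least 2 libraries only through the Amn-high libraries, so that a difference in them was fixed beforehand. Vil1, Mep1a, Pdzk1 and Cltrn were among these 8. Ggt1, the glutathione-cleaving gamma-glutamyltransferase, was at 160.4 and 126 CPM unstimulated and 54.7 and 93.6 CPM stimulated and at 1.91 to 19.8 CPM (median 6.03) in the Amn-low libraries (3.63 ± 0.43). Vil1, the microvillar actin bundler villin, read 45.5 and 34.3 CPM unstimulated and 14.8 and 23.1 CPM stimulated and at most 0.452 CPM in any Amn-low library (7.29 ± 0.43). The metalloprotease gene Mep1a stood at 15.7 and 12.0 CPM unstimulated and 0.181 and 3.11 CPM stimulated, with an Amn-low maximum of 0.0585 CPM (8.96 ± 0.51). Its stimulated library from animal 1 was therefore far below the other 3 Amn-high libraries, though still above every Amn-low library.

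The genes of the protein complex that links the tips of neighbouring microvilli were higher together. Anks4b, one of its scaffolds, held 29.7 and 30.5 CPM unstimulated and 1.33 and 24.1 CPM stimulated against an Amn-low maximum of 0.351 CPM (7.77 ± 0.60). The protocadherins Cdhr2 and Cdhr5 differed by 5.63 ± 0.52 and 4.37 ± 0.53, the scaffold Ush1c by 3.57 ± 0.36 and the motor Myo7b by 2.52 ± 0.35. Cdhr2 was at most 0.979 CPM in any library, so its difference rests on few counts. Anks4b, Cdhr2 and Cdhr5 passed the count filter only through the Amn-high libraries, so a difference in them was fixed beforehand. Not every peptidase followed: Dpp4 and Enpep had overlapping classes at −0.17 ± 0.74 and −0.96 ± 0.31, and Treh, Mep1b and Dpep1 did not exceed 0.135 CPM in any library.

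Transport genes divided by kind. Slc6a18, an apical neutral amino acid transporter, was at 432 and 554 CPM unstimulated and 146 and 258 CPM stimulated against 0.733 to 25.5 CPM (median 3.01) (5.85 ± 0.58). Cltrn, the collectrin that carries such transporters to the apical membrane, was at 10.8 and 3.71 CPM unstimulated and 0.605 and 0.570 CPM stimulated and at most 0.258 CPM in the Amn-low libraries (6.27 ± 0.53). Cltrn passed the count filter only through the unstimulated Amn-high libraries, so its difference was fixed beforehand. Slc3a1, the heavy chain of the apical cystine transporter, stood at 17.7 and 5.36 CPM unstimulated and 1.15 and 5.83 CPM stimulated against 0.0733 to 0.888 CPM (median 0.429) (4.0 ± 0.41), with the stimulated library of animal 1 close to the Amn-low range. The basolateral transporters Slc7a8 and Slc16a10 differed by 4.92 ± 0.38 and 2.53 ± 0.29. In all, 4 of 9 amino acid and peptide transporters that passed the filter, from 11 listed, were called higher and 0 lower. Slc7a9, the light chain that pairs with Slc3a1, was at 3.61 and 1.03 CPM unstimulated and 0 and 0.0634 CPM stimulated and was not called because the stimulated classes overlapped.

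Among organic ion transporters 6 of 9 that passed, from 17 listed, were called higher. Of the 9, 2 passed the count filter only through the Amn-high libraries, Slc17a3 among them, so a difference in these was fixed beforehand. Slc47a1, the apical cation exporter MATE1, was at 49.7 and 23.4 CPM unstimulated and 16.6 and 9.70 CPM stimulated against 0 to 0.904 CPM (median 0.327) (6.03 ± 0.52). Abcc2, an apical conjugate exporter, held 94.4 and 63.7 CPM unstimulated and 39.0 and 42.5 CPM stimulated against an Amn-low maximum of 4.73 CPM (5.56 ± 0.60). Slc17a1 and Slc17a3, members of the urate and phosphate transporter family, differed by 4.31 ± 0.63 and 6.14 ± 0.54. The basolateral uptake carriers were close to absent: Slc22a6 reached at most 0.206 CPM and Slc22a8 0.406 CPM in any library.

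Glucose and phosphate transport showed the limit of the state. Only 7 of 17 listed sugar, phosphate, sodium and water transport genes passed the filter and 1 was called higher, the basolateral bicarbonate cotransporter Slc4a4 at 154 and 95.3 CPM unstimulated and 118 and 90.5 CPM stimulated against 30.6 to 68.7 CPM (median 46.5) (1.23 ± 0.17). Slc34a1, the main renal phosphate cotransporter, was at 0.0903 and 0.773 CPM unstimulated and 0.0605 and 0 CPM stimulated, and Slc5a2, the glucose cotransporter SGLT2, at 0.361 and 0.309 CPM unstimulated and 0 and 0.0634 CPM stimulated. Slc34a3 had 0 counts in all 20 libraries. Aqp1, the water channel of this segment, was at 59.9 and 85.3 CPM unstimulated and 2.12 and 5.39 CPM stimulated against 0 to 7.79 CPM (median 1.17), so its stimulated Amn-high libraries lay inside the Amn-low range. The 4 libraries thus held endocytic, brush border and several transporter genes of the proximal tubule. They were near 0 for Slc34a1, Slc5a2 and the basolateral organic anion carriers Slc22a6 and Slc22a8, which define the segment in the kidney.

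Transcription factors of the segment followed the same division. Hnf4a, a nuclear receptor required for the mature proximal tubule, was at 176 and 77.7 CPM unstimulated and 38.3 and 38.1 CPM stimulated against 0 to 2.92 CPM (median 0.560), a log2 difference of 6.64 ± 0.43. Hnf4g, the coactivator Ppargc1a and the orphan receptor Esrrg differed by 2.38 ± 0.26, 2.87 ± 0.34 and 2.26 ± 0.27. Factors that mark the renal epithelium as a whole did not separate the classes. Pax8 was at 226 and 238 CPM unstimulated and 325 and 286 CPM stimulated against 133 to 385 CPM (median 192), and Pax8 and Pax2 overlapped at 0.39 ± 0.17 and −0.38 ± 0.21. In all, 5 of 14 listed factors that passed were called higher and 0 lower. Sp8, a zinc finger factor outside the lists, was among the 10 largest positive differences, at 9.26 and 16.6 CPM unstimulated and 1.33 and 24.5 CPM stimulated with an Amn-low maximum of 0.194 CPM (8.07 ± 0.58). Sp8 passed the count filter only through the Amn-high libraries, so its difference was fixed beforehand.

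Metabolic genes included the largest differences. The 10 highest among well-detected genes (mean log2 CPM of at least 1) included Sult1d1, Clrn3, Gsta2, Sp8, Anks4b, Keg1, Vil1, Hnf4a and Ugt2b34, and in each the lowest Amn-high library exceeded the highest Amn-low one. Sult1d1, Clrn3, Gsta2, Sp8, Anks4b and Vil1 stayed under the filter's 0.574 CPM in every Amn-low library. They passed the filter only through the Amn-high libraries, so a difference in them was fixed beforehand. Sult1d1, a cytosolic sulfotransferase, had the highest fold change among the well-detected genes, at 95.0 and 59.1 CPM unstimulated and 1.27 and 5.39 CPM stimulated against at most 0.117 CPM in the Amn-low libraries (10.19 ± 0.37). It was lowest in the stimulated library of animal 1. The Amn-low libraries held 7 counts of Sult1d1 in all, with 0 counts in 12 of them, so the size of its difference rests on few counts. Glyat, which conjugates acyl groups to glycine, held 61.3 and 65.7 CPM unstimulated and 35.3 and 41.3 CPM stimulated against 0.293 to 2.07 CPM (median 0.934) (5.61 ± 0.27) and varied less than 2-fold among the 4 libraries. Of 14 gluconeogenic and amino acid metabolism genes that passed, from 25 listed, 5 were called higher, among them the dopa decarboxylase Ddc at 4.64 ± 0.62 and the proline dehydrogenase Prodh at 3.17 ± 0.27. Of the 14, 3 passed the count filter only through the Amn-high libraries, Ddc among them, so a difference in these was fixed beforehand. Hpd, Bhmt and Agmat had 0 counts in all 20 libraries, and G6pc and Fbp1 did not exceed 0.0903 CPM.

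Drug and vitamin metabolism was similar, with 7 of 12 that passed, from 19 listed, called higher and a median log2 difference of 5.28. Of the 12, 6 passed the count filter only through the Amn-high libraries, so a difference in these was fixed beforehand. They were Gsta2, Napsa, Kap, Cyp24a1, Cyp27b1 and Acsm2. Keg1, a kidney-enriched gene, was at 294 and 87.1 CPM unstimulated and 2.36 and 26.4 CPM stimulated against 0 to 1.49 CPM (median 0.303) (7.41 ± 0.50). The glutathione transferase Gsta2 stood at 30.8 and 11.8 CPM unstimulated and 25.6 and 9.06 CPM stimulated against at most 0.224 CPM (8.45 ± 0.45). The aspartic protease Napsa and the androgen-regulated Kap differed by 6.26 ± 0.61 and 6.03 ± 0.60, and the vitamin D enzymes Cyp24a1 and Cyp27b1 by 5.39 ± 0.72 and 2.67 ± 0.40. Outside the lists, the glucuronosyltransferase Ugt2b34 differed by 6.60 ± 0.42 and the tetraspan protein gene Clrn3 by 9.42 ± 0.46. Clrn3 was at 59.4, 48.1, 5.68 and 34.4 CPM in the 4 libraries (control of animals 1 and 9, then stimulated) and at most 0.194 CPM elsewhere.

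Fatty acid oxidation genes differed by smaller amounts. Of 22 fatty acid oxidation genes, all of which passed, 2 were called higher: Slc27a2, a long-chain acyl-CoA synthetase, by 7.14 ± 0.54 and Acaa1b, a peroxisomal thiolase, by 2.23 ± 0.18. Slc27a2 passed the count filter only through the Amn-high libraries, so its difference was fixed beforehand. The list's median was 0.38, with 18 of 22 positive, and its summed level did not overlap, at 1636 to 2063 CPM in the Amn-high and 1349 to 1510.4 CPM in the Amn-low libraries. None of the 13 mitochondrially encoded genes was called, and their median was −0.10. mt-Co1 was at 7679, 11367, 10586 and 10529 CPM against 5117 to 14346 CPM (median 6391), within the same range.

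**Figure D1:**
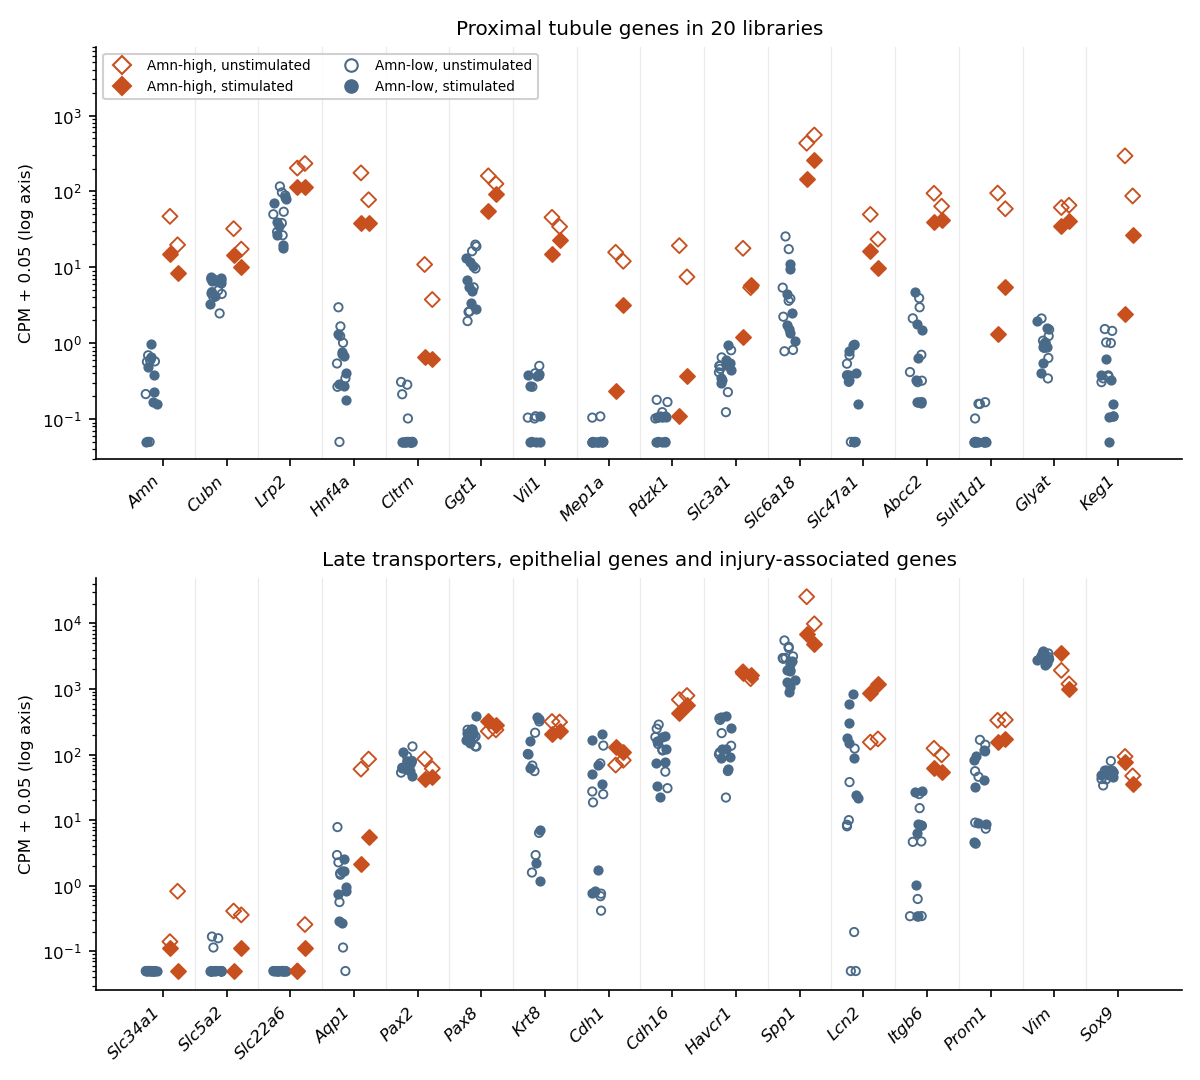
Level of 32 genes in each of the 20 libraries (CPM + 0.05, log axis). Diamonds are the 4 Amn-high libraries, open when unstimulated and filled when stimulated, and the other symbols are the 16 Amn-low libraries. The upper panel holds proximal tubule genes, where the diamonds lie above the Amn-low libraries, apart from stimulated values of Lrp2 and Pdzk1, as for Vil1 (at most 0.452 CPM in an Amn-low library). The lower panel holds the late transporters Slc34a1, Slc5a2 and Slc22a6, near 0 everywhere, and Aqp1, which stands out in the unstimulated Amn-high libraries. It also holds epithelial genes, which overlap apart from Cdh16, and injury-associated genes. Of these, genes such as Havcr1 were higher in the Amn-high libraries, while Vim and Sox9 overlap.

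Promoter sequences are shown for genes called higher or lower whose start region holds the recognition letters of HNF4 or of the serum response factor. The latter acts on many contractile genes. Of the genes shown, Pdzk1 passed the count filter only through the unstimulated Amn-high libraries, so its difference was fixed beforehand. The windows run from 250 bases before to 50 bases after the annotated start and come from RefSeq on build GRCm38.p6, with 11192 of the tested genes matched. The HNF4 letters searched were CAAAGTCCA or CAAAGGTCA, on both strands. The serum response factor site was searched as the CArG box, whose sequence is its own reverse complement in form. No motif overlapped another type in the windows shown. Capitals mark the matched motif. Slc3a1 (cystine transporter chain) and Pdzk1 (scaffold of apical transporters) hold the HNF4 letters and Myl9 (myosin light chain, lower in the Amn-high libraries) a CArG box. They lie on the plus strand at chr17:85028097-85028396, chr3:96829815-96830114 and chr2:156775214-156775513, each given 5′ to 3′ in the direction of its gene.
Slc3a1: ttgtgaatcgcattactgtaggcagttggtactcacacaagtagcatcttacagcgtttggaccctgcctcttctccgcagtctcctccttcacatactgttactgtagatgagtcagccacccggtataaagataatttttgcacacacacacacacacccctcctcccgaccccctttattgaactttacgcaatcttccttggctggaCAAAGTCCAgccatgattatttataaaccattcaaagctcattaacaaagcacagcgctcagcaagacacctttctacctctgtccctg
Pdzk1: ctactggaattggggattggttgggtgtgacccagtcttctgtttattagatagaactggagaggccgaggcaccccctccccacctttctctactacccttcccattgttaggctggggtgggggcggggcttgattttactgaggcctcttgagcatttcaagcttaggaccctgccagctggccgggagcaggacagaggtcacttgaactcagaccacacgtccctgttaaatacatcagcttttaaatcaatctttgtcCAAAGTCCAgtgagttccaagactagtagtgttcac
Myl9: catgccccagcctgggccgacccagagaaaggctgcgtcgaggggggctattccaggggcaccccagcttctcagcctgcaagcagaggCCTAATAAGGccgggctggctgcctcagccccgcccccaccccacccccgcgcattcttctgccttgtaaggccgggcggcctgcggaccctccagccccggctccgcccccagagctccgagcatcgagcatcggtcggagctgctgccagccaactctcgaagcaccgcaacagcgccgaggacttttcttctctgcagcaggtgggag

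The motif began 39 bases before the start of Slc3a1 and 161 before that of Myl9, and 14 bases after that of Pdzk1. The HNF4 letters stood in 0.95% of all 32851 promoter windows and 0.822% of those of tested genes. They stood in those of 13 of 538 genes called higher (2.42%) and 3 of 440 genes called lower (0.682%). The CArG box stood in 1.63% of all windows, 1.58% of tested genes, 1.86% of genes called higher (10 genes, among them Vil1) and 3.86% of genes called lower (17 genes). A match describes these letters in this window and is neither a measured site nor a cause.

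Epithelial genes showed that the Amn-low libraries were not of 1 kind. Among 21 junction and epithelial regulator genes that passed, from 22 listed, 4 were called higher and 1 lower. Cdh16, kidney-specific cadherin, was at 687 and 795 CPM unstimulated and 424 and 571 CPM stimulated against 22.7 to 287 CPM (median 121) (2.26 ± 0.43). The polarity genes Crb3 and Pard6b and the junction protein Tjp3 differed by 1.68 ± 0.32, 1.19 ± 0.14 and 2.40 ± 0.41, and Cdh6, a cadherin of the developing proximal tubule, was lower at −1.18 ± 0.24. Krt8, Krt7, Cdh1 and Epcam, the keratins and adhesion molecules of simple epithelia, were not called. Krt8 stood at 319, 313, 209 and 227 CPM in the Amn-high libraries and at 1.13 to 375 CPM (median 64.7) in the Amn-low ones. The 6 Amn-low libraries of animals 2, 6 and 10 held 1.13 to 7.10 CPM of Krt8, 0.366 to 1.71 CPM of Cdh1 and 0.147 to 0.942 CPM of Epcam. The other 10 Amn-low libraries held 56.0 to 375 CPM of Krt8, 18.6 to 202 CPM of Cdh1 and 13.9 to 76.6 CPM of Epcam, a range that contains the Amn-high libraries for each of the 3 genes. These 6 and 10 libraries were set apart after their values were seen.

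Defining genes of segments other than the proximal tubule were near 0 in both classes. Umod, Slc12a3, Calb1 and Aqp2, which define the loop of Henle, the distal tubule and the collecting duct, did not exceed 0.271 CPM in any library. Of 12 distal genes that passed, from 28 listed, 4 were called higher and 1 lower, and 9 had a positive difference with a median of 1.23. The list summed to 159 to 213 CPM in the Amn-high and 53.5 to 166 CPM in the Amn-low libraries. Of the 12, 2 passed the count filter only through the Amn-high libraries, Cldn10 and Cldn16, so a difference in them was fixed beforehand. Cldn10, a claudin of several segments, was at 3.25 and 5.98 CPM unstimulated and 0.786 and 3.30 CPM stimulated against at most 0.258 CPM (5.45 ± 0.54), Wfdc2 differed by 2.61 ± 0.95 and Cldn16 by 3.99 ± 0.77, while Slc12a1 was lower at −3.11 ± 0.56 with at most 1.17 CPM anywhere.

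The description of the Amn-low cultures as dedifferentiated was set against injury and dedifferentiation genes, and the data went against it for several of them. Of 31 listed genes, all of which passed, 6 were called higher in the Amn-high libraries, 0 lower and 25 neither. A positive difference was seen for 23 and a negative one for 8, from −1.96 to 3.33 with a median of 1.04. Havcr1, the kidney injury molecule KIM-1, was at 1825 and 1438 CPM unstimulated and 1766 and 1631 CPM stimulated against 22.1 to 384 CPM (median 123) (3.24 ± 0.46). Spp1, osteopontin, stood at 25553 and 9867 CPM unstimulated and 6837 and 4894 CPM stimulated against 889 to 5497 CPM (median 2545) (2.08 ± 0.26). Lcn2, the injury marker NGAL, was at 155 and 173 CPM unstimulated and 867 and 1212 CPM stimulated, against 0 to 123 CPM in unstimulated and 22.1 to 828 CPM in stimulated Amn-low libraries (2.40 ± 0.95). Itgb6, Krt20 and Prom1 differed by 3.33 ± 0.80, 2.92 ± 0.56 and 2.04 ± 0.71. All 3 are known from injured or regenerating tubule. Sox9 and Vim, of dedifferentiating tubule, had overlapping classes at 0.27 ± 0.19 and −0.69 ± 0.22. Summed over the list, the Amn-high libraries held 16062 to 37409.6 CPM and the Amn-low ones 7981 to 14309 CPM. Without Spp1 the sums overlapped, at 9125 to 13807 CPM and 6595 to 11891 CPM. The libraries are therefore named by their Amn level throughout.

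On the other side of the division were contractile genes. Of 16 listed, all of which passed, 13 were called lower in the Amn-high libraries and 0 higher, with a median log2 difference of −2.90. Acta2, smooth muscle actin, was at 177 and 990.0 CPM unstimulated and 71.3 and 401 CPM stimulated against 1581 to 6267 CPM (median 3715) (−3.38 ± 0.49). Tagln, an actin-binding protein of smooth muscle, stood at 240.0 and 849 CPM unstimulated and 136 and 366 CPM stimulated against 1133 to 6203 CPM (median 3189) (−3.17 ± 0.42). Cnn1, calponin, held 18.7 and 101 CPM unstimulated and 4.05 and 25.8 CPM stimulated against 90.7 to 821 CPM (median 379) (−3.67 ± 0.60). The control of animal 9 was the highest of the 4 Amn-high libraries for each of these genes, and for Cnn1 it lay above the lowest stimulated Amn-low library. The other called members included Actg2 at −4.65 ± 0.80, Myh11 at −4.0 ± 0.65, Myl9 at −3.64 ± 0.50, Des at −3.43 ± 0.71 and Tpm1 at −1.71 ± 0.28. Of the 13 called genes, 11 were higher in animal 9 than in animal 1 in both the control and the stimulated libraries.

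Matrix genes were lower as well, with 14 of 26 listed and passing called lower, 0 higher, and a median of −2.19. Fn1, fibronectin, was at 3380.1 and 3929.7 CPM unstimulated and 4096 and 3233 CPM stimulated against 7590.1 to 24707 CPM (median 18201) (−2.23 ± 0.26), about as low in all 4 Amn-high libraries. Sparc, a matrix-binding glycoprotein, stood at 888 and 1074 CPM unstimulated and 623 and 604 CPM stimulated against 2054 to 5211 CPM (median 3763) (−2.28 ± 0.20). Fbn1, fibrillin, held 11.5 and 39.7 CPM unstimulated and 5.50 and 24.8 CPM stimulated against 75.0 to 485 CPM (median 223) (−3.57 ± 0.51). The basement membrane collagens Col4a1 and Col4a2 differed by −2.07 ± 0.27 and −2.23 ± 0.31, Col5a1 by −3.21 ± 0.40, the proteoglycan Bgn by −3.31 ± 0.53, Postn by −3.35 ± 0.50 and the crosslinking enzymes Lox and Loxl2 by −2.68 ± 0.31 and −2.59 ± 0.26. Fbln1 and Fbln2 did not follow, at 0.08 ± 0.24 and 0.20 ± 0.36 with overlapping classes. The list's summed level was 8994 to 15945 CPM in the Amn-high and 18823 to 64617 CPM in the Amn-low libraries.

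Of 16 mesenchymal regulators and adhesion genes, 6 were called lower and 0 higher. Cdh11, a mesenchymal cadherin, was at 58.2 and 107 CPM unstimulated and 121 and 113 CPM stimulated against 455 to 1179 CPM (median 842) (−3.09 ± 0.28). Snai2 and Zeb1, repressors of epithelial genes, differed by −2.52 ± 0.26 and −1.01 ± 0.11, the forkhead factor Foxc2 by −3.36 ± 0.53, and the growth factors Tgfb2 and Tgfb3 by −1.58 ± 0.21 and −3.06 ± 0.32. Twist2, Zeb2, Cdh2 and Tgfb1 had overlapping classes, at −0.22 ± 0.18, −0.62 ± 0.20, 0.23 ± 0.14 and −0.23 ± 0.20.

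The 10 largest negative differences among well-detected genes were those of Cyp11b1, C2cd4a, Fbn2, Islr, Actg2, Smoc2, Col3a1, Dkk2, Grik4 and Pdgfrb. Cyp11b1, a steroid hydroxylase best known from the adrenal cortex, was at 0.226, 0, 0 and 0.127 CPM in the Amn-high libraries against 0.293 to 15.8 CPM (median 4.30) (−5.90 ± 1.02). Smoc2, a matricellular protein, was at 0.361, 1.75, 0.302 and 1.14 CPM against 4.62 to 37.9 CPM (median 17.4) (−4.46 ± 0.63). Dkk2, a Wnt modulator, and Fbn2, a fibrillin, differed by −4.37 ± 0.90 and −5.26 ± 1.14, and C2cd4a, Islr and Grik4 by −5.75 ± 0.67, −4.95 ± 1.33 and −4.29 ± 0.76.

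**Figure D2:**
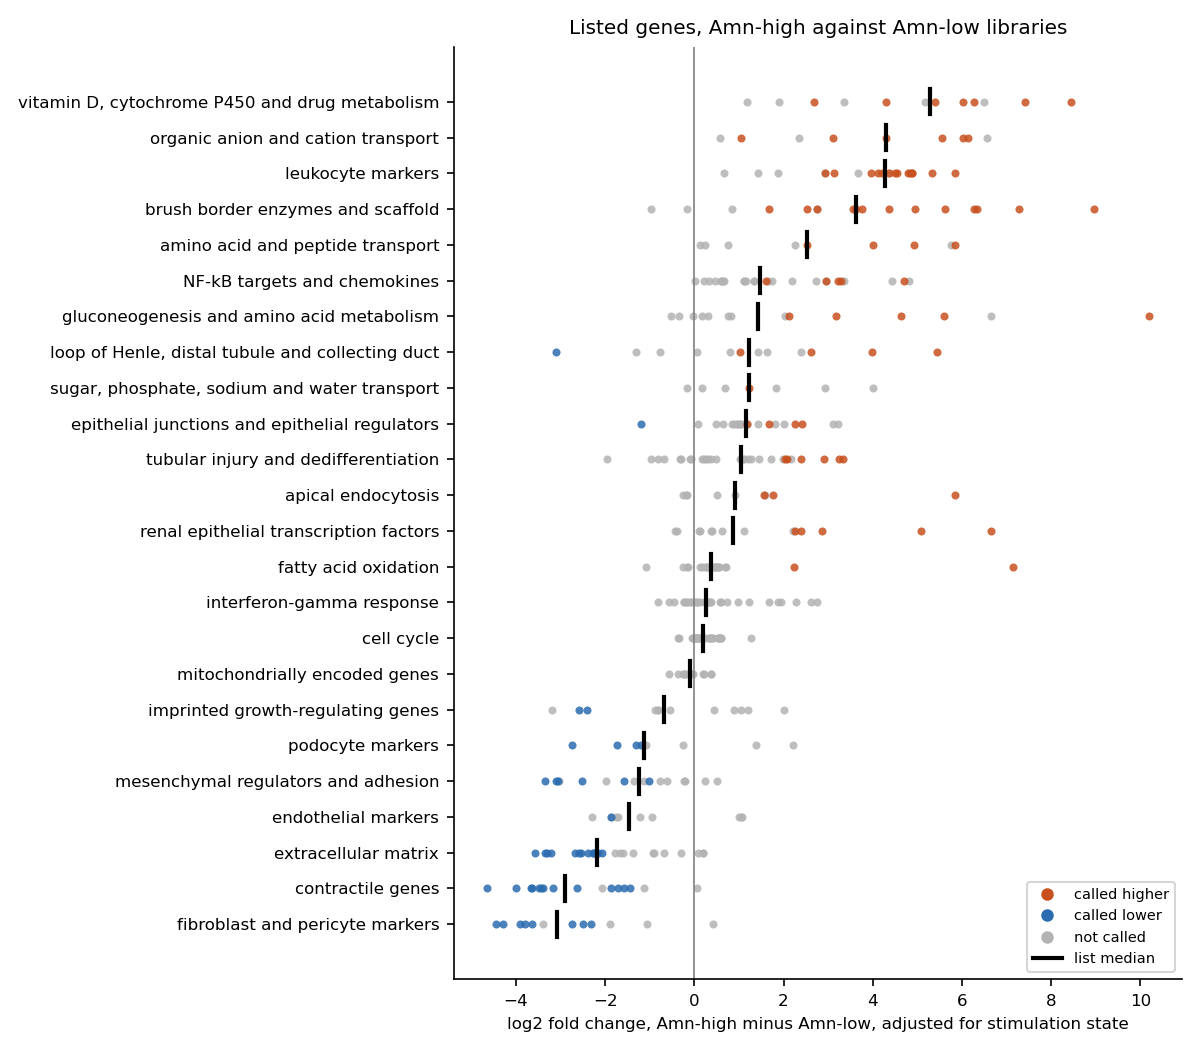
Log2 fold change of each listed gene that passed the count filter, Amn-high minus Amn-low libraries, adjusted for stimulation state, 1 line per gene list. Coloured points were called higher or lower, grey points were not called, and the black bar is the list's median. Tubular lists lie to the right of 0, for example brush border genes with a median of 3.63, and contractile, matrix and fibroblast lists to the left, for example contractile genes with a median of −2.90. Of the 17 brush border genes, 8 passed the filter only through the Amn-high libraries, so a difference in them was fixed beforehand.

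Markers of cells other than tubular cells also moved with the class. Of 16 fibroblast and pericyte markers, 12 passed, and 8 were called lower in the Amn-high libraries with 0 higher. Their summed level was 100.3 to 597 CPM in the Amn-high and 1049.9 to 14721 CPM in the Amn-low libraries. Col1a1, the main chain of type I collagen, was at 29.4 and 290.5 CPM unstimulated and 19.6 and 230.2 CPM stimulated against 455 to 7543 CPM (median 783) (−3.79 ± 1.06) and was higher in both libraries of animal 9 than in those of animal 1. Pdgfrb, a pericyte receptor, stood at 1.90 and 10.6 CPM unstimulated and 0.302 and 4.56 CPM stimulated against 11.7 to 298 CPM (median 63.7) (−4.29 ± 0.74), and Thy1 and Col3a1 differed by −3.91 ± 0.60 and −4.46 ± 1.08. The fibroblast markers Pdgfra and Dcn were low throughout, at most 1.78 and 2.54 CPM, and Lum, Pi16 and Dpt were at or near 0. The part of fibroblasts or pericytes in the lower contractile and matrix genes was not tested.

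Leukocyte markers moved the other way. Of 32 listed, 20 passed and 14 were called higher in the Amn-high libraries with 0 lower. Of the 20, 10 passed only through the Amn-high libraries, so a difference in these was fixed beforehand. Ptprc, Itgam, Tyrobp and Fcgr1 were among these 10. The list summed to 139.8 to 458 CPM in the Amn-high and 32.4 to 76.9 CPM in the Amn-low libraries. Lyz2, a lysozyme of macrophages and neutrophils, was at 43.7 and 216 CPM unstimulated and 16.9 and 102 CPM stimulated against 0.327 to 9.82 CPM (median 2.13) (4.85 ± 0.57). Ptprc, the common leukocyte antigen CD45, stood at 3.34 and 7.47 CPM unstimulated and 0.665 and 8.62 CPM stimulated against 0 to 0.517 CPM (median 0.180) (4.36 ± 0.48). Adgre1, the macrophage antigen F4/80, held 1.81 and 6.70 CPM unstimulated and 2.84 and 29.4 CPM stimulated against 0 to 1.16 CPM (median 0.315) (4.88 ± 0.60). The complement genes C1qa and C1qb, the integrin Itgam, the adaptor Tyrobp and the Fc receptor Fcgr1 differed by 4.54 ± 0.53, 4.79 ± 0.59, 5.34 ± 0.56, 4.88 ± 0.69 and 5.84 ± 0.60. The lymphocyte markers Cd3d, Cd3e, Cd8a and Ms4a1 and the macrophage receptor Cd163 had 0 counts in all 20 libraries. Animal 9 exceeded animal 1 in both the control and the stimulated library for 13 of the 14 called markers. For the 13 called brush border genes the same held for 5, and the opposite for 3. The part of leukocytes in the other higher genes was not tested.

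Endothelial and podocyte markers were not higher in the Amn-high libraries, and their summed levels were lower. The endothelial list summed to 25.0 to 30.5 CPM in the Amn-high and 48.5 to 125 CPM in the Amn-low libraries. Its median log2 difference was −1.47, with 3 genes positive and 7 negative. The podocyte list summed to 464 to 832 CPM against 866 to 2457 CPM, with a median of −1.13, 2 positive and 6 negative. Of 10 endothelial genes that passed, from 15 listed, 1 was called lower, the receptor Flt1 at −1.87 ± 0.41. Pecam1 and Cdh5, which define endothelium, reached at most 2.75 and 3.15 CPM in an Amn-low library and 0.587 and 0.768 CPM in an Amn-high one. Nphs1, a slit diaphragm gene of podocytes, did not exceed 0.653 CPM anywhere. Of 8 podocyte-listed genes that passed, from 10 listed, 4 were called lower: Wt1, a transcription factor also of nephron progenitors, at 28.1, 14.3, 11.4 and 9.44 CPM against 70.7 to 148 CPM (median 95.8) (−2.74 ± 0.22), Plce1 at −1.72 ± 0.45, Synpo at −1.30 ± 0.25 and Nes at −1.19 ± 0.22. Synpo and Nes encode a cytoskeletal protein and an intermediate filament that other cells also make.

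**Figure D3:**
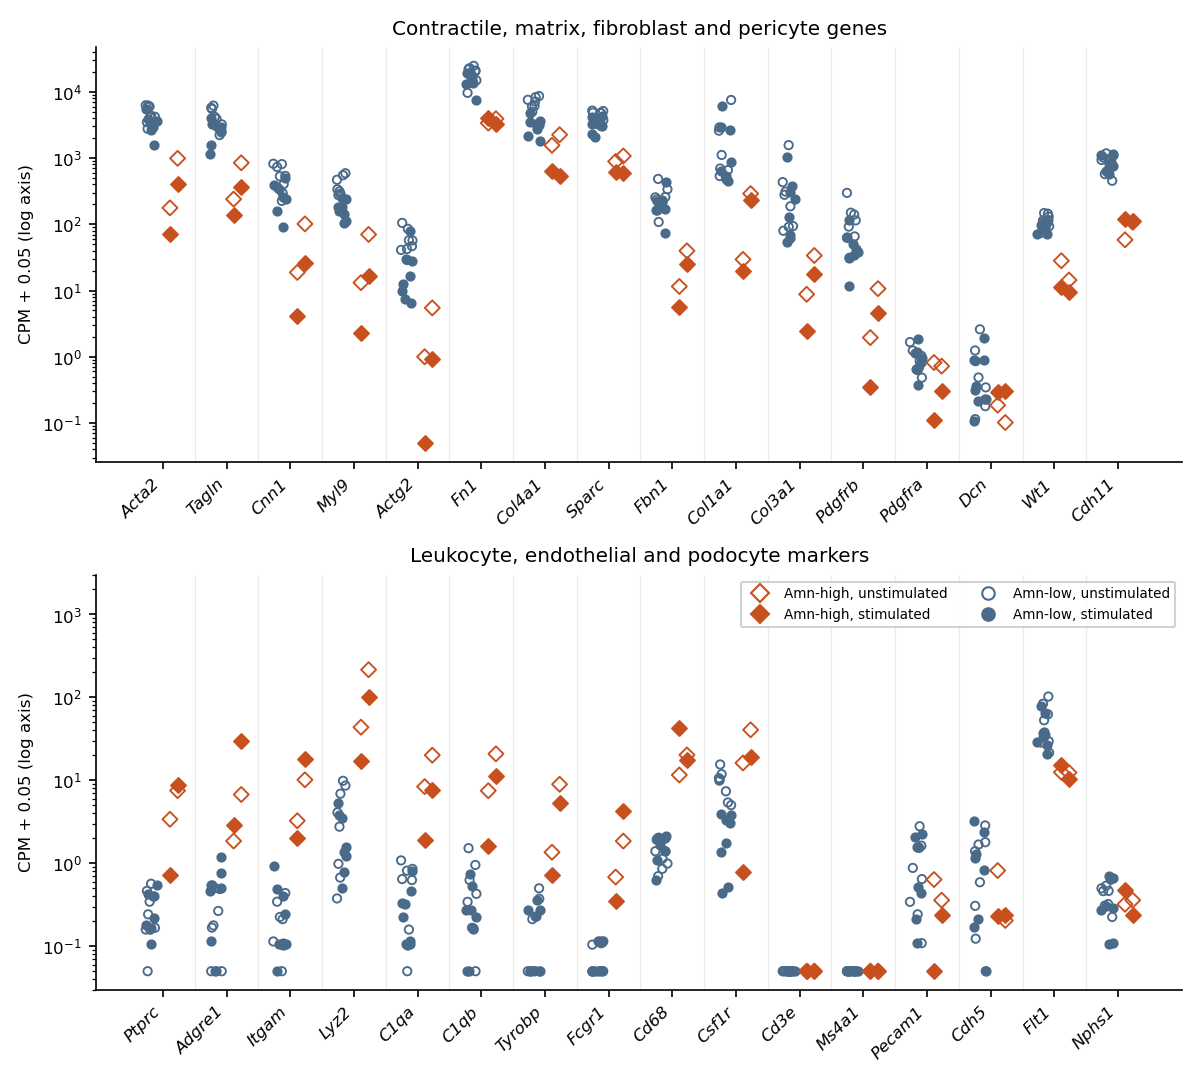
Level of 32 further genes in each of the 20 libraries (CPM + 0.05, log axis), with symbols as for the tubule genes. In the upper panel the contractile, matrix and pericyte genes of the 4 Amn-high libraries lie below the Amn-low libraries of the same state, with Pdgfra and Dcn low in both. In the lower panel macrophage-expressed genes such as Lyz2 lie above them, apart from 1 library for Csf1r, while Cd3e and Ms4a1 are at 0 in every library.

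Proliferation did not distinguish the classes. None of 30 cell cycle genes was called, and their median log2 difference was 0.20. Top2a, the topoisomerase of dividing cells, was at 136 and 32.4 CPM unstimulated and 309 and 73.4 CPM stimulated against 52.2 to 155 CPM (median 90.8). Animals 1 and 9 differed from each other: all 30 genes were higher in animal 1 than in animal 9, in the control and in the stimulated library. Of 12 imprinted growth genes that passed, 2 were called lower, Peg10 at −2.58 ± 0.44 and Sgce at −2.40 ± 0.33, which are neighbours on the genome and share a promoter region.

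Among inflammatory genes, the chemokine and cytokine list was shifted upward and the interferon list less so. Of 34 interferon-gamma response genes 0 were called, with a median of 0.27. Gbp2, a guanylate-binding protein, was at 9.30 and 9.28 CPM unstimulated and 7319 and 3377 CPM stimulated, and in the Amn-low libraries at 484 to 11446 CPM when stimulated. Of 26 NF-kB targets, 5 were called higher, and all 26 had a positive difference, with a median of 1.47. Cxcl5, a neutrophil chemokine, stood at 3.21 and 0.721 CPM unstimulated and 188 and 1490.0 CPM stimulated, against 0 to 0.487 CPM in unstimulated and 24.9 to 179.8 CPM in stimulated Amn-low libraries (3.22 ± 0.45). Il1a, an alarmin cytokine, was at 0.0903 and 0.876 CPM unstimulated and 6.35 and 86.7 CPM stimulated (4.69 ± 0.71). The Amn-low libraries held 0 to 0.0589 CPM of Il1a unstimulated and 0.0559 to 4.67 CPM stimulated, so both libraries of animal 1 lay close to their range. Tnf, Cxcl2 and Cxcl1 differed by 3.29 ± 0.47, 2.96 ± 0.35 and 1.60 ± 0.38. For Il1a and Tnf the stimulated library of animal 9, which also held the higher Adgre1 and Itgam, was the highest.

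The response to LPS+IFNγ was examined within the Amn-high libraries, a comparison that the choice by Amn level did not use and that was added after the values were seen. Of 15618 genes, 1166 (7.47%) rose and 814 (5.21%) fell with stimulation in the 4 Amn-high libraries (edgeR quasi-likelihood test, Benjamini-Hochberg adjusted p under 0.05). Control and stimulated libraries of an animal deviated together, so the test was repeated with the animal as a block, which gave 2254 genes higher (14.4%) and 2575 lower (16.5%). The counts rest on few libraries. Without the control or the stimulated library of animal 1 they were 623 and 386 or 591 and 201. Without the control or the stimulated library of animal 9 they were 563 and 327 or 2092 and 2138. With the state taken from the labels, which puts 4 Amn-low libraries in the other state, they were 504 and 388.

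Inflammatory genes rose throughout. All 34 interferon-gamma response genes and 25 of 26 NF-kB targets passed as higher, with median log2 responses of 6.43 and 5.11, beside −0.05 over all genes. Of these lists, 9 and 8 members passed the count filter only through stimulated libraries of either class, so the filter favoured a rise in them. The counts and medians include these members. Cxcl5 rose by 8.71 ± 1.13 (edgeR adjusted p = 9.8e-05), and the adhesion molecule Vcam1, at 34.1 and 29.6 CPM unstimulated and 561 and 1051 CPM stimulated, by 4.66 ± 0.83 (edgeR adjusted p = 0.00120).

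Single proximal tubule genes fell. For Pdzk1, the apical transporter scaffold, no test is given, because it passed the count filter only through the unstimulated Amn-high libraries. It went from 19.2 and 7.42 CPM in the controls of animals 1 and 9 to 0.0605 and 0.317 CPM. Both stimulated values lay near the Amn-low range of 0 to 0.129 CPM (median 0.0543). Sult1d1 fell by 4.53 ± 0.70 on the log2 scale (edgeR adjusted p = 0.00154, with the animal block 0.0363). Keg1 fell from 294 and 87.1 to 2.36 and 26.4 CPM, a response of −3.73 ± 0.89 (edgeR adjusted p = 0.00978, block 0.0134). In each of these the fall was larger in animal 1 than in animal 9.

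Aqp1 fell from 59.9 and 85.3 to 2.12 and 5.39 CPM, with a log2 response of −4.27 ± 1.36 (edgeR adjusted p = 0.0458, block 1.3e-04). Cyp24a1 and Ugt2b34 fell too, with responses of −4.37 ± 1.25 and −2.88 ± 0.81 (edgeR adjusted p = 0.0276 and 0.0250). Ugt2b34 also fell in the Amn-low libraries, at most 1.34 CPM there, by −2.24 ± 0.65 (edgeR adjusted p = 0.0214). Ddc, which like Pdzk1 passed the filter only through the unstimulated Amn-high libraries, went from 15.1 and 3.97 to 0.544 and 0.444 CPM. The exporter Abcg2 fell by a smaller amount, −1.16 ± 0.29 (edgeR adjusted p = 0.0136). The basolateral amino acid transporter Slc7a8 went the other way, from 5.87 and 7.58 to 53.5 and 10.3 CPM, a response of 2.25 ± 0.67 (edgeR adjusted p = 0.0338, block 0.0273). The step was larger in animal 1 than in animal 9.

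As groups, most tubular genes did not pass the test without the block. The counts here leave out members that passed the filter only through the unstimulated Amn-high libraries, and over all genes 5.21% fell without and 16.5% with the block. Of the 12 brush border genes left, 8 fell with the animal block, and the stimulated value was below the control value in both animals for 10. Of 9 endocytosis genes 0 passed, and 5 fell with the block, among them Cubn (−1.0 ± 0.43, edgeR adjusted p = 0.139, block 0.00533) and Lrp2 (−0.94 ± 0.73, 0.438, block 0.00252). Of 10 drug and vitamin metabolism genes 2 fell (4 with the block) and of 22 fatty acid oxidation genes 5 fell (9 with the block, with 1 that rose). Acadm, the medium-chain acyl-CoA dehydrogenase, fell by 1.07 ± 0.15 (edgeR adjusted p = 1.6e-04). Hnf4a, at −1.73 ± 0.81, had an edgeR adjusted p of 0.173 and of 0.00668 with the block.

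Of 31 injury genes, 3 rose and 1 fell, and with the block 7 rose and 6 fell, where 14.4% of all genes rose and 16.5% fell with the block. Havcr1 had a response of 0.06 ± 0.97 (edgeR adjusted p = 0.981), with 4 values between 1438 and 1825 CPM. Cd44, a hyaluronan receptor, rose by 2.27 ± 0.51 (edgeR adjusted p = 0.00616), and Dcdc2a fell from 314 and 237 to 16.3 and 75.4 CPM (edgeR adjusted p = 0.00498). Lyz2, of macrophages, was at −1.13 ± 1.18 (edgeR adjusted p = 0.589, block 0.0178). Of 17 leukocyte markers, leaving out 3 that passed the filter only through the unstimulated Amn-high libraries, 5 fell with the block, beside the falls in tubular genes, and the part of 1 in the other was not tested.

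**Figure D4:**
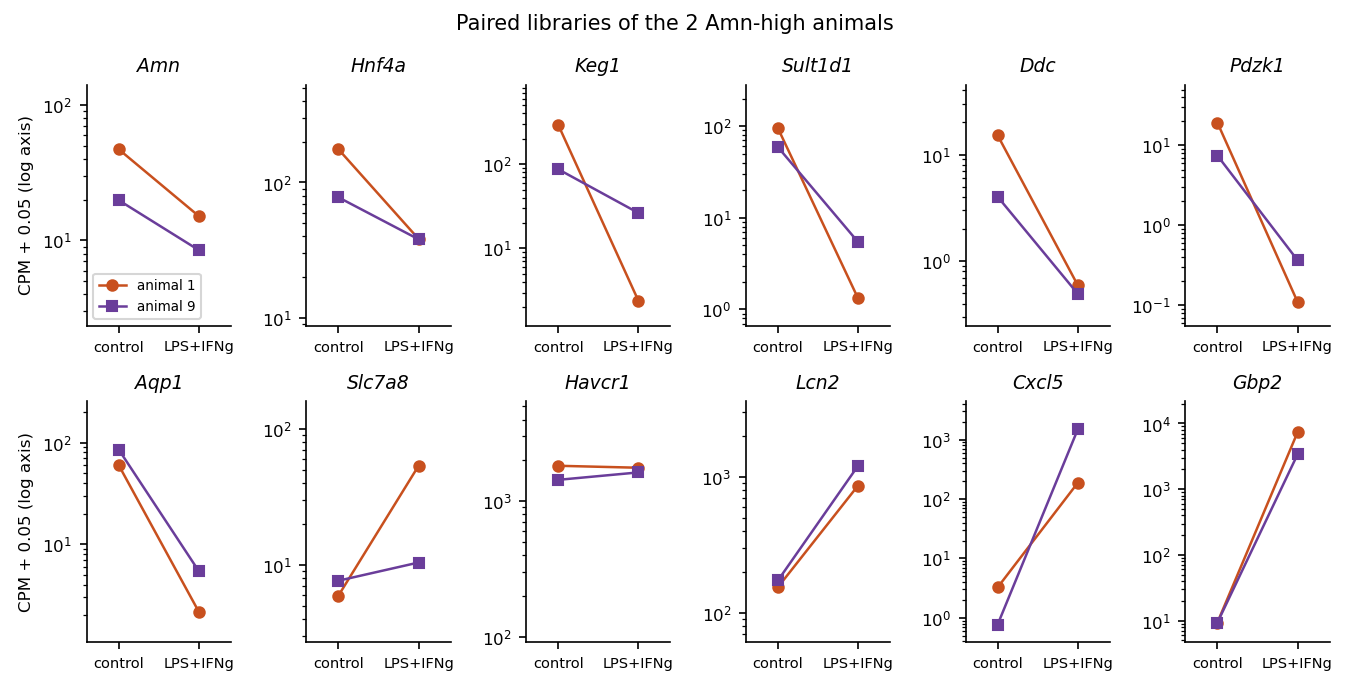
Level of 12 genes in the control and stimulated library of animals 1 and 9 (CPM + 0.05, log axis), each line joining the 2 libraries of 1 animal. Pdzk1, Sult1d1, Keg1, Ddc and Aqp1 go down in both animals, Slc7a8, Cxcl5 and Gbp2 go up, and Havcr1 stays between 1438 and 1825 CPM.

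Whether the response itself differed between the classes was tested as an interaction. Without a block 0 of 15618 genes passed (0%, edgeR quasi-likelihood test, Benjamini-Hochberg), with 1809 at an unadjusted p under 0.05 (11.6%). DESeq2 called 211 genes and limma-voom 36. With the animal block, 283 genes (1.81%) had a more positive and 531 (3.4%) a more negative response in the Amn-high libraries. That count was 3896 without animal 9, 145 without animal 1, 378 without animals 4 and 8, and 20 without animals 4, 5, 7 and 8. In the test without a block, leaving out the stimulated library of animal 9 gave 2036 genes and leaving out KO control replicate 5 gave 20.

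The genes with the lowest p were 1700003M07Rik, Glrx, Klc4, Adora2b and Tnfrsf1b. Tnfrsf1b, the second TNF receptor, went from 14.4 and 13.8 to 103 and 83.0 CPM, while the Amn-low libraries held 17.9 to 38.6 CPM unstimulated and 29.8 to 57.3 CPM stimulated. The Amn-high libraries were thus the lowest when unstimulated and the highest when stimulated. The difference in log2 response was 2.09 ± 0.37 (edgeR adjusted p = 0.0608, block 7.7e-04). Glrx, glutaredoxin, went from 17.7 and 14.0 to 177 and 60.5 CPM, against 11.7 to 22.8 CPM in stimulated Amn-low libraries, a difference of 2.50 ± 0.42 (edgeR adjusted p = 0.0608, block 0.00894). Adora2b, an adenosine receptor, and Klc4, a kinesin light chain, differed by 2.47 ± 0.44 and −0.99 ± 0.18, with edgeR adjusted p = 0.0608 and 0.0608, or 0.00929 and 0.00338 with the block.

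Many brush border and transporter genes were near 0 in the Amn-low libraries, so a difference in response could not be read for them. Among tubular genes with counts in both classes, Aqp1 was 1 of several that differed in response with the block, at −3.66 ± 0.57 (edgeR adjusted p = 0.00979 with the animal block and 0.386 without it). With the block, 2 of 9 endocytosis, 2 of 22 fatty acid oxidation and 2 of 21 junction genes had a more negative response. So did 1 of 14 gluconeogenic and 1 of 12 drug metabolism genes, and 0 of 17 brush border genes. In the gluconeogenic list 1 was more positive. Over all genes 3.4% were more negative. Of 26 NF-kB targets 4 had a more positive response in the Amn-high libraries with the block, and of 34 interferon-gamma response genes 1 had a more negative one.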

How the data were processed

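RNA was sequenced in 20 strand-marking libraries made from total RNA, per the labels' protocols. The deposited table holds estimated counts per Ensembl gene and library, which per its values are whole numbers (0 values needed rounding), for 55891 gene IDs, with 0 per-sample columns left unused. Salmon 1.10.2, FastQC 0.11.9, DESeq2 1.45.3, R 4.4.1 and the build GRCm39 stand in the submitters' processing notes, without their roles. Symbols from a reference table of Ensembl gene IDs and symbols matched 51425 IDs (92.0%), which held 98.8% of counts.

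Libraries were classed by Amn and stimulation state by Nos2 in CPM of plain column totals. The members and gene lists were chosen with earlier results of these data known. Printed CPM values use TMM factors (0.938 to 1.12). Genes were filtered with edgeR's filterByExpr over class by state, which left 15618. edgeR 4.0.16 quasi-likelihood fits in R 4.3.3 gave fold changes from an additive model of state and class, and tests of the response within the Amn-high libraries and of its difference between classes from 4 group means, with Benjamini-Hochberg adjustment over all tested genes. The response within the Amn-high libraries was added after the data were seen. limma 3.58.1, DESeq2 1.42.0, other filters, states and library subsets were alternatives. Fits were tested on simulated data. Pairing by animal was checked: deviations from the class by state means correlated positively within each animal (Pearson's r across genes 0.380 to 0.662, where animals 1 and 9 mirror each other and give 1 value), and animal identity comes from the labels.

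Named genes were Amn, Hnf4a, Ggt1, Cubn, Slc3a1 and Nos2, the 10 highest and 10 lowest genes by fold change among those called and expressed at a mean log2 CPM over the limit of 1, up to 4 called members per list by size (2 by level where none was called), and for the difference in response 5 by lowest p. Further list members are named to account for the lists. Results for a few genes are not reported here.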

Additional observations from a re-analysis of the deposited data

Results flagged for a closer look

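Summed list levels, total counts and genes detected were screened for a library far from the others, in the 4 Amn-high libraries together and in the 8 unstimulated and 8 stimulated Amn-low libraries (state by Nos2). Of these 78 groups of values 12 held one, where chance gives about 1 in 20. In 2 the library was Amn-high, the stimulated library of animal 9, which was the lowest of its group in endothelial markers (25.0 CPM, median of the others 30.3) and in podocyte markers (464 CPM, others 815). The other 10 were Amn-low libraries.

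The libraries of animal 10 were high in several lists among the Amn-low libraries of their state. KO control replicate 5 held 380.1 CPM of organic ion transporters (others 231) and 105 CPM of drug and vitamin metabolism genes (others 54.5). KO LPS+IFNγ replicate 5 held 493 CPM of organic ion transporters (others 348), 276 CPM of drug and vitamin metabolism genes (others 91.0), 867 CPM of renal transcription factors (others 526) and 29902 CPM of mitochondrially encoded genes (others 15019). Amn stayed below 2 CPM in both.

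The libraries of animal 7 were high in fibroblast and pericyte markers, at 14721 CPM in het control replicate 3 (others 1533) and 12694 CPM in KO LPS+IFNγ replicate 3 (others 1334). Imprinted growth genes were high in the pair of animal 4, at 1152 CPM in het control replicate 5 (others 729) and 1667 CPM in het LPS+IFNγ replicate 5 (others 1132). Nos2 puts both libraries of that pair in the state opposite to their label.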

How the results depend on the processing

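Under the alternatives run, 3244 level differences of named genes were recomputed. Of these 0 reversed a called gene and 196 moved by at least the SD between libraries of a class and state. Of 175 differences in response of the 5 genes named for them, 0 changed sign. The count of 736 genes higher in the Amn-high libraries became 1166 in het libraries alone, 456 at a 4-fold minimum, 1226 without animal 1 and 1176 without animal 9, and ranged from 729 to 1037 with 1 library left out. The 656 lower genes became 345 at a 4-fold minimum and 1162 without animal 9, with a range of 657 to 807. With the animal as a replicate block they were 736 and 653, and with the replicate number as a block 660 and 566. A block enters only the fold change and not the non-overlap, so these counts cannot show what shared animals do to the calls.

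Genes that differed in response numbered 0 without a block, 3 without animals 4 and 8, 211 with DESeq2, 36 with limma-voom and 0 to 2036 with 1 library left out. With the animal as a replicate block they were 814, 378 without animals 4 and 8, 20 without animals 4, 5, 7 and 8, 145 without animal 1 and 3896 without animal 9. The replicate number as a block gave 26. The cause was not tested.

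Within the Amn-high libraries, 1166 genes rose and 814 fell with stimulation. These became 504 and 388 with the state from the labels, 601 and 320 in het libraries alone, and 482 fell without animals 5 and 7. The animal block gave 2254 and 2575, then 2120 and 2411 without animals 4 and 8, 1812 and 1532 without animals 4, 5, 7 and 8, and 2858 and 3137 without animal 9. With the replicate number as a block 1253 fell. Leaving out 1 library gave 563 to 2092 and 201 to 2138.

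Limits: 2 animals carry the Amn-high state, both het. Genes under 1 CPM rest on few counts. Composition of the cultures was not measured.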

Other observations

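Further genes among the 60 largest positive differences, chosen for mention after their values were seen, fall outside the gene lists. Calml4, a calmodulin-like light chain of the same microvillar link complex as Anks4b and Myo7b, was at 27.3, 19.9, 3.39 and 8.18 CPM in the Amn-high libraries (control of animals 1 and 9, then stimulated) and at most 0.646 CPM in an Amn-low library (5.44 ± 0.37). Fxyd2, the renal regulator of the sodium pump, stood at 25.1, 9.02, 8.46 and 2.16 CPM against at most 0.711 CPM (6.01 ± 0.60). Adh1, an alcohol dehydrogenase, and Ugt1a1, a glucuronosyltransferase, differed by 6.48 ± 0.61 and 5.01 ± 0.66. Cd36, a fatty acid receptor of macrophages and other cells, and Msr1 and Mmp12, macrophage genes, differed by 4.79 ± 0.58, 5.68 ± 0.52 and 4.34 ± 0.45, beside the leukocyte markers given above. Fxyd2 and Msr1 passed the count filter only through the Amn-high libraries, so a difference in them was fixed beforehand.

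Among the 60 largest negative differences outside the lists, the collagen receptor Itga11 was at 0.903, 5.57, 0.121 and 3.04 CPM against 9.56 to 104 CPM (median 37.1) (−4.14 ± 0.66). The heparan sulfatase Sulf1, the gelatinase Mmp2 and the growth factor Fgf2 differed by −3.85 ± 0.74, −3.78 ± 0.32 and −4.28 ± 0.49. The ion channel Piezo2 and the homeobox gene Hoxd11 differed by −3.94 ± 0.50 and −3.74 ± 0.67.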
